A study of Mus musculus with 4 samples.

Results

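The 10 genes described here, Rgs2, Rgs3, Rgs4, Rgs7, Rgs8, Rgs10, Rgs12, Rgs16, Rgs17 and Rgs20, encode regulators of G protein signalling (RGS proteins). They were taken by symbol from a table of 25965 entries, and each symbol was found once. They were chosen by their total counts in Smchd1-deleted against control cells, with these and the ratio of their parental alleles already known, so the changes between these groups are given as a description, and their calls as those of a fit to all genes, with nothing read from them. All 10 passed the filter on low counts.

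RNA was sequenced from female mouse neural stem cells with and without the chromatin repressor Smchd1, known for its role in X inactivation and imprinting. The deleted group had the genotype Smchd1 del/del and the control group Smchd1 del/fl, so control cells already lacked 1 functional allele. Both groups carried Xist 129-KO/Xist WT-Cast, an Xist deltaA allele on the maternal X of 129 origin and an intact one on the paternal X of Castaneus (Cast) origin, in a C57BL/6, 129 and Castaneus mixed background. Lines were derived from E14.5 embryos (embryonic day of mid-gestation). Part of each line received MSCV-Cre-puro, a retrovirus that carries Cre recombinase and puromycin resistance, was put under puromycin from 24 hours after transduction and was harvested at day 7, while the rest stayed untransduced. Deletion, transduction and selection therefore cannot be told apart. The data held 4 libraries, 1 deleted and 1 control from each of 2 lines, called A and B. Fold changes are deleted over control, and n = 2 libraries per group throughout.

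Library totals ranged from 29873400 to 34018500 counts. Smchd1 itself had 785 and 852 counts in the deleted libraries of lines A and B, against 2779 and 3461 in the controls. Its counts cover the whole gene, including parts that the deletion may leave in place. Neural stem cell markers were present in every library, at summed levels of 8875 to 9917 CPM (normalized counts per 1000000 reads counted) in deleted cells and 8792 to 9547 CPM in controls. Markers of related lineages were present too. The neuron markers summed to 121 to 164 CPM in deleted cells and 155 to 254 CPM in controls. The oligodendrocyte lineage markers summed to 2477 to 2569 CPM in deleted cells and 2460 to 2869 CPM in controls. Most of that was Olig1 (1578 to 1866 CPM over the libraries) and Olig2 (726 to 935 CPM), while Sox10 had 1.04 to 8.28 CPM. The mesenchyme markers, with Lum and Dcn at 0, summed to 133 to 205 CPM in deleted cells and 119 to 195 CPM in controls. Most of that was Prrx1 (97.0 to 142 CPM). The astrocyte markers summed to 911 to 993 CPM in deleted cells and 568 to 573 CPM in controls. The 10 microglia markers summed to 14.6 to 19.2 CPM in deleted cells and 15.3 to 17.6 CPM in controls, with Cx3cr1, Tmem119, C1qa and C1qb at 0 in all libraries, and the 10 pericyte, smooth muscle and endothelial markers to 12.6 to 24.4 and 15.9 to 27.9 CPM, with the endothelial cadherin gene Cdh5 at 0.

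Receptors coupled to heterotrimeric G proteins act by loading the alpha subunit with GTP, which frees it and the beta-gamma dimer to act on effectors. RGS proteins shorten that signal: their RGS domain speeds the hydrolysis of GTP by the alpha subunit. The R4 subfamily (here Rgs2, Rgs3, Rgs4, Rgs8 and Rgs16) consists mostly of small proteins that act on Gi/o and Gq subunits. R7 proteins (Rgs7) work bound to the beta subunit Gnb5 and a membrane anchor. The R12 subfamily (Rgs10 and Rgs12) and the RZ subfamily (Rgs17 and Rgs20) act mainly on Gi/o subunits, and RZ proteins on Gz as well.

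In deleted cells 2 neighbouring R4 genes, Rgs8 and Rgs16, were lower and the RZ gene Rgs20 was higher, in both lines. These 3 were past the threshold in edgeR's quasi-likelihood test with line as a block, which called 5.6% of all genes (3.71% higher and 1.89% lower), and the other 7 were not. Without that term 0 of the 10 were, and 0% of all genes. In bulk RNA, fewer cells of a type and less RNA per cell cannot be told apart.

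Rgs8 and Rgs16 lie on chromosome 1 (mm10), on the plus strand and in the same orientation, with 42681 bases between the end of Rgs8 (153653025 to 153697667) and the start of Rgs16 (153740349 to 153745468). Because the pair moved together, their promoter windows are shown, from 250 bases before to 50 bases after the annotated start, as given by RefSeq on GRCm38.p6, the mm10 assembly. Rgs8 has 3 annotated starts there, and the first is shown. Capitals mark matches, on either strand, to TATAAA, TGACGTCA (the full cyclic AMP response element), GGGCGG (a GC box), CCAAT or GGAATG (the core of the site bound by TEAD factors).
Rgs8 (chr1:153652787-153653086, plus strand): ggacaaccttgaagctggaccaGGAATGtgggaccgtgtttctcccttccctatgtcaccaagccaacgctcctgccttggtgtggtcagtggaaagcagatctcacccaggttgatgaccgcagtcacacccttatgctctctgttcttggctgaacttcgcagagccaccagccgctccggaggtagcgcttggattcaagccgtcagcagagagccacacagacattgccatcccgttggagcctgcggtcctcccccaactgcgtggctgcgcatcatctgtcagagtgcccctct
Rgs16 (chr1:153740103-153740402, plus strand): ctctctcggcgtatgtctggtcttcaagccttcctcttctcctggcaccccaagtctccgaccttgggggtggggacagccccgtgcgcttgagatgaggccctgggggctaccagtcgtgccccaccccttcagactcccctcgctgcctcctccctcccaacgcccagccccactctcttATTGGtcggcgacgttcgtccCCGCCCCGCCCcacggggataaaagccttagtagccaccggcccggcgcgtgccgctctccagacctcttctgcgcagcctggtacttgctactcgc
The Rgs8 window held 1 GGAATG and no other match, and the 2 further Rgs8 windows held 1 CCAAT each. The Rgs16 window held 2 GGGCGG, in 1 run of capitals, and 1 CCAAT (as ATTGG on the shown strand), and neither gene's windows held TATAAA or TGACGTCA. Of all 32851 windows in the table, 14.7% hold GGAATG, 37.4% CCAAT, 35.7% GGGCGG, 13.6% TATAAA and 1.79% TGACGTCA. Windows were matched for 9 of the 10 members, all but Rgs20.

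**Figure D1:**
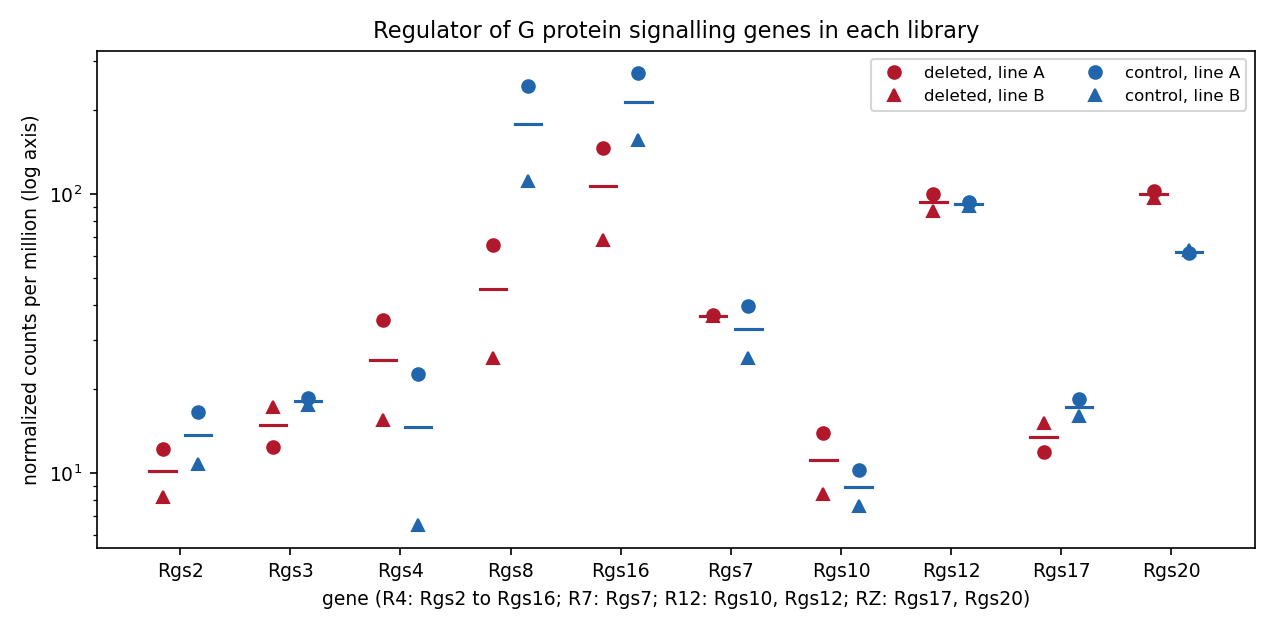
Normalized CPM (log axis) of the 10 genes in each library. Circles are line A, triangles line B, and bars the mean of the 2 libraries of a group. Rgs8 and Rgs16 are lower and Rgs20 higher in both deleted libraries than in either control.

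Rgs8, an R4 member known from brain and abundant in cerebellar Purkinje cells, had 65.7 CPM in deleted A and 25.7 CPM in deleted B, against 244 CPM in control A and 112 CPM in control B. The groups did not overlap, and line A was above line B in both. Deleted cells averaged 45.7 ± 28.3 CPM and controls 178 ± 93.6 CPM (SD, n = 2 each). The log2 fold change was −1.96 (SE 0.62) without a term for line and −2.00 (SE 0.09) with line as a block, and the lines gave −1.89 (A) and −2.12 (B).

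Rgs16, an R4 member whose mRNA is known to be quickly induced by stimuli in many cell types, had 146 CPM in deleted A and 68.6 CPM in deleted B, against 271 CPM in control A and 157 CPM in control B. The groups did not overlap, though the margin was narrow between deleted A and control B. Means were 107 ± 54.9 CPM in deleted cells and 214 ± 81.2 CPM in controls (SD, n = 2 each). The log2 fold change was −0.99 (SE 0.47) without and −1.04 (SE 0.09) with line as a block, from −0.89 in line A and −1.19 in line B.

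Rgs20 (chromosome 1, 4909576 to 5070285, minus strand), an RZ member also known as RGSZ1 that acts on Gz, had 103 CPM in deleted A and 97.1 CPM in deleted B, against 61.4 CPM in control A and 63.0 CPM in control B. Its lines lay close together, and the groups were well apart. Means were 99.8 ± 3.83 CPM in deleted cells and 62.2 ± 1.11 CPM in controls (SD, n = 2 each), a log2 fold change of 0.68 (SE 0.07 with line as a block), and within the lines 0.74 in A and 0.63 in B.

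Fitted with genotype alone, edgeR's quasi-likelihood test put 0 of the 10 members past an adjusted p of 0.05, and 0 of all 14860 genes (0%). At an unadjusted p under 0.05 it had 1 member higher and 1 lower, and 1019 genes higher and 718 lower. DESeq2 without line called 1 member, Rgs20, and 2.54% of all genes. Libraries of 1 line are parts of the same culture, and with line as a block edgeR called 3 of 10 members, Rgs8 and Rgs16 lower and Rgs20 higher. The median log2 fold change of the 10 members was −0.14 and that of all genes 0.01. In 5 of the 10, Rgs3, Rgs8, Rgs16, Rgs17 and Rgs20, deleted and control libraries did not overlap, which held for 45.7% of all genes tested.

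**Figure D2:**
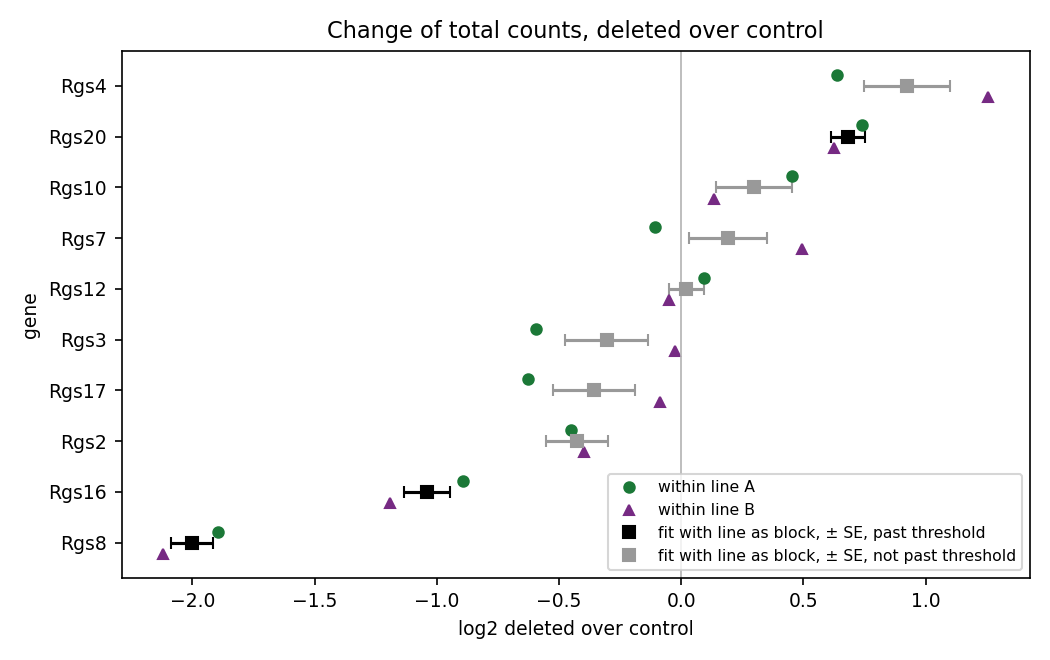
Log2 change of total counts, deleted over control, for each gene. Squares are the edgeR estimate with line as a block and its SE (black where past an adjusted p of 0.05), circles the ratio within line A and triangles that within line B. Rgs8 at −2.00, Rgs16 at −1.04 and Rgs20 at 0.68 are the 3 black squares, and Rgs7 and Rgs12 have their lines on opposite sides of 0.

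Rgs4 (chromosome 1, 169741477 to 169747642, minus strand), an R4 regulator of Gi/o and Gq signalling in brain, had 35.4 CPM in deleted A and 15.5 CPM in deleted B, against 22.7 CPM in control A and 6.48 CPM in control B. It was above its own control in each line, but line A was higher than line B in both groups and the groups overlapped. Its log2 fold change was 0.92 (SE 0.18) with line as a block, 0.64 in line A and 1.26 in line B, and it was not past the threshold there. DESeq2 with the same block called it and 3 other members, Rgs8, Rgs16 and Rgs20 (4 of 10, beside 8.07% of all genes). Rgs4 was also called by edgeR with that block and no filter on low counts, where the share of all genes called was not taken.

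Rgs2 (chromosome 1, 143999338 to 144004161, minus strand), an R4 member with a preference for Gq, had 12.1 CPM in deleted A and 8.19 CPM in deleted B, against 16.6 CPM in control A and 10.8 CPM in control B. The lines gave close values, −0.45 in A and −0.40 in B, but the groups overlapped and the gene was not called (−0.42, SE 0.13, with line as a block).

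Rgs3 (chromosome 4, 62559847 to 62703018, plus strand), an R4 gene with long and short protein forms, had 12.3 CPM in deleted A and 17.3 CPM in deleted B, against 18.6 CPM in control A and 17.5 CPM in control B. Only deleted A stood apart: the log2 ratio in line A was −0.59, and that in line B −0.02 (−0.31, SE 0.17, with line as a block, not called).

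Rgs7 (chromosome 1, 175059736 to 175491130, minus strand), the R7 member, had 36.9 CPM in deleted A and 36.4 CPM in deleted B, against 39.8 CPM in control A and 25.9 CPM in control B. The deleted values sat between the controls. Its log2 fold change with line as a block was 0.19 (SE 0.16, not called).

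Of the R12 members, Rgs10 (chromosome 7, 128373621 to 128418758, minus strand), a small protein known for its role in microglia, had 13.9 CPM in deleted A and 8.38 CPM in deleted B, against 10.2 CPM in control A and 7.63 CPM in control B. The groups overlapped, and the change of 0.30 (SE 0.15 with line as a block) was not called. Rgs12 (chromosome 5, 34949445 to 35039644, plus strand), a large scaffold that also carries a GoLoco motif for Gi subunits, had 100 CPM in deleted A and 87.3 CPM in deleted B, against 93.9 CPM in control A and 90.4 CPM in control B. Its change was the smallest of the 10, at 0.02 (SE 0.07 with line as a block).

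Rgs17 (chromosome 10, 5825663 to 5922400, minus strand), the other RZ member, had 11.9 CPM in deleted A and 15.1 CPM in deleted B, against 18.4 CPM in control A and 16.02 CPM in control B. The lines differed, with −0.63 in A and −0.09 in B, and the change of −0.36 (SE 0.17 with line as a block) was not called. Rgs17 and Rgs20, both of the RZ subfamily, thus lay on opposite sides of their controls in both lines.

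Per length of transcript, Rgs16 was the most abundant member in controls. Levels between genes were compared as CPM per kilobase of annotated exon. In deleted cells Rgs16 averaged 45.9 ± 23.5 and Rgs20 39.7 ± 1.52 on this scale, and in controls 91.5 ± 34.7 and 24.7 ± 0.44 (SD, n = 2 each). The Rgs16 and Rgs20 ranges overlapped in deleted cells and not in controls. The ratio of Rgs16 to Rgs20 was 1.53 in deleted A and 0.759 in deleted B, against 4.75 in control A and 2.67 in control B, so in line B the order was turned. Rgs8 averaged 5.11 ± 3.16 CPM per kilobase in deleted cells, the 7th level of 10, and 19.9 ± 10.5 in controls, the 3rd level. After Rgs16 and Rgs20, the order in deleted cells was Rgs7, Rgs12, Rgs10, Rgs4, Rgs8, Rgs2, Rgs3 and Rgs17, and in controls Rgs8, Rgs12, Rgs7, Rgs10, Rgs4, Rgs2, Rgs3 and Rgs17. In deleted cells the neighbours Rgs7 and Rgs12, Rgs10 and Rgs4, Rgs4 and Rgs8, Rgs8 and Rgs2, and Rgs3 and Rgs17 overlapped. In controls it was Rgs20 and Rgs8, Rgs8 and Rgs12, Rgs12 and Rgs7, Rgs10 and Rgs4, Rgs4 and Rgs2, and Rgs3 and Rgs17. The least abundant member in both groups was Rgs17, at 1.65 ± 0.27 in deleted cells and 2.10 ± 0.21 in controls. Summed over the 10 members, the level was 172 in deleted A and 118 in deleted B, against 224 in control A and 145 in control B. Exon length is the union over transcripts, so these levels understate genes with a long form that the cells do not use.

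Of 7 tested genes near the pair, none was as much lower in deleted cells as Rgs8 or Rgs16. These were Lamc1, 1700012A16Rik, Dhx9 and Npl before Rgs8, and 5830403L16Rik, Glul and A930039A15Rik after Rgs16, within 153218922 to 153916910, and 0 tested genes lay between Rgs8 and Rgs16. With line as a block, 2 of these 7 were called by edgeR, both lower: Lamc1, a laminin chain gene, fell by 0.40 (SE 0.07) and Dhx9, a helicase gene, by 0.39 (SE 0.07). Both were just past the threshold (edgeR adjusted p = 0.0477 for Lamc1 and 0.0498 for Dhx9). Npl, a sialic acid lyase gene on the Rgs8 side, had 50.5 CPM in deleted A and 54.5 CPM in deleted B, against 51.9 CPM in control A and 43.7 CPM in control B. It was not called, and the groups overlapped. Glul, the glutamine synthetase gene and an astrocyte marker, had 185 CPM in deleted A and 199.5 CPM in deleted B, against 155 CPM in control A and 178 CPM in control B, and was not called. The difference between Rgs8 or Rgs16 and these genes was not tested.

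**Figure D3:**
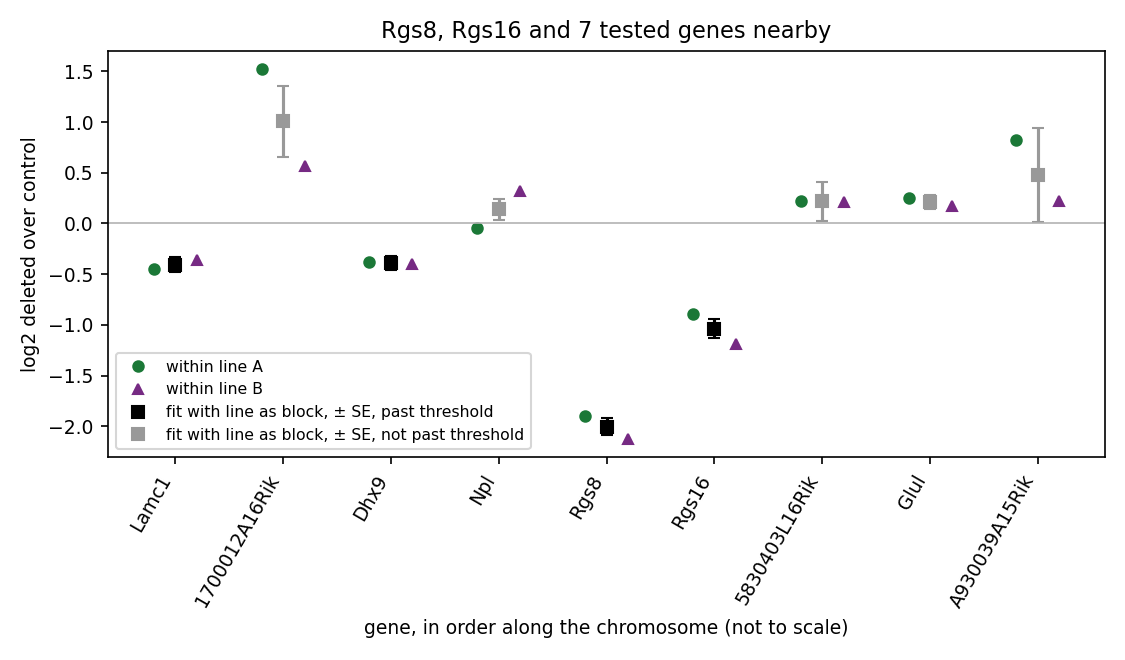
Log2 change of total counts, deleted over control, for Rgs8, Rgs16 and 7 tested genes nearby, in order along chromosome 1. Squares are the edgeR estimate with line as a block and its SE (black where past an adjusted p of 0.05), circles line A and triangles line B. Rgs8 (−2.00) and Rgs16 (−1.04) lie below these 7 genes, which run from −0.40 to 1.01, the highest being the low-count gene 1700012A16Rik.

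By the distance between centred log2 CPM values over the 4 libraries, the genes most like Rgs8 of 12746 compared were Cyp1b1, a cytochrome P450 gene (distance 0.36, Pearson r = 0.99), Tes, a focal adhesion gene (0.51, r = 0.99), and Myof, a membrane repair gene (0.52, r = 0.98). For Rgs20 they were Tmem106b (0.05), a lysosomal membrane protein gene, 2010300C02Rik (0.05) and Akap7 (0.05), an anchor gene for protein kinase A, each with r = 1.00. With 4 libraries from 2 lines such likeness is a description only.

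Of the other RGS genes in the list, 10 were in the table and 5 were tested, and 0 were called by edgeR with or without line as a block. Rgs1, Rgs13, Rgs14 and Rgs18 had no count in any library, and Rgs11 had 0 to 10. Rgs19, the third RZ gene, was the highest of those tested, at 21.9 CPM in deleted A and 21.7 CPM in deleted B, against 26.1 CPM in control A and 23.2 CPM in control B (−0.17, SE 0.10, with line as a block). Rgs9, an R7 gene, had 7.53 and 6.75 CPM in deleted A and B, against 5.92 and 7.01 CPM in controls A and B (0.14, SE 0.18). Rgs5, an R4 gene known as a pericyte marker that lies near Rgs4 on the chromosome, had 119 counts in deleted A and 10 in deleted B, against 26 in control A and 20 in control B.

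Among 94 other genes of G protein signalling tested, in 7 lists that include those 5 RGS genes, edgeR with line as a block called 11 higher and 3 lower, or 14.9%, beside 5.6% of all genes. The lists were drawn up with some results of these data known, so the share is a description. Without line as a block it called 0 of the 94, and DESeq2 without line called 6.

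Rgs7bp, a membrane anchor of R7 proteins, was in the list of R7 partners and other G protein modulators. It had 55.0 CPM in deleted A and 109 CPM in deleted B, against 35.9 CPM in control A and 69.0 CPM in control B, and rose in both lines (0.64, SE 0.07, edgeR adjusted p = 0.0227 with line as a block). It was the only 1 of 12 tested modulators past the threshold (list median −0.02).

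Of 14 tested alpha subunit genes, the direct substrates of RGS proteins, 0 were called by edgeR in either fit (list median 0.11). The most abundant were Gnas, for the stimulatory subunit, at 1474 and 1372 CPM in deleted A and B, against 1426 and 1400 CPM in controls A and B, and Gnai2, an inhibitory subunit, at 559 and 533 CPM in deleted A and B, against 529 and 503 CPM in controls A and B. With line as a block, edgeR called 4 of 11 tested beta and gamma subunit genes higher and 0 lower, beside 3.71% and 1.89% of all genes. Of the 11, 6 had positive log2 fold changes (list median 0.16). Gng11 rose by a log2 of 1.60 (SE 0.26, adjusted p = 0.0436 by edgeR), Gng7 by 0.78 (SE 0.10), Gnb4 by 0.75 (SE 0.11) and Gng12 by 0.43 (SE 0.07). Gng11 was low, at 116 and 49 counts in deleted A and B, against 34 and 17 in controls A and B, while Gng12 had 313 and 356 CPM in deleted A and B, against 231 and 267 CPM in controls A and B.

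With line as a block, edgeR called 1 of 12 tested effector genes higher and 1 lower, beside 3.71% and 1.89% of all genes. Of the 12, 7 had positive log2 fold changes (list median 0.22). Adcy2, an adenylyl cyclase, had 12.2 CPM in deleted A and 3.03 CPM in deleted B, against 2.05 CPM in control A and 1.09 CPM in control B (2.09, SE 0.32). Its rise was larger in line A, at 2.58, than in line B, at 1.48. Plcb1, the phospholipase C driven by Gq, had 38.0 and 22.2 CPM in deleted A and B and fell, against 64.5 and 46.2 CPM in controls A and B (−0.91, SE 0.10, edgeR adjusted p = 0.0245). Of 7 tested receptor kinases and arrestins that fit called 1, Arrb1, lower, and 3 had positive log2 fold changes (list median −0.07). Arrb1 encodes an arrestin that uncouples activated receptors. It had 32.2 CPM in both deleted libraries, against 63.7 and 58.2 CPM in controls A and B (−0.92, SE 0.08, edgeR adjusted p = 0.0197). The medians of these lists stand beside 0.01 for all genes.

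With line as a block, edgeR called 5 of 33 tested receptor genes higher and 1 lower, beside 3.71% and 1.89% of all genes. Of the 33, 21 had positive log2 fold changes (list median 0.38). Grm5, a glutamate receptor coupled to Gq, had 440 CPM in deleted A and 472 CPM in deleted B, against 240 CPM in control A and 244 CPM in control B (0.91, SE 0.07, edgeR adjusted p = 0.0194). Grm3, coupled to Gi/o, rose by 1.08 (SE 0.12), with line B above line A in both groups, and the endothelin receptor Ednra by 1.01 (SE 0.16). The serotonin receptor Htr1b, coupled to Gi/o, fell by 1.92 (SE 0.33), just past the threshold (edgeR adjusted p = 0.0467). It had 67 and 176 counts in deleted A and B, against 362 and 476 in controls A and B. The sphingosine phosphate receptor S1pr1 (0.74, SE 0.08) and the GABA-B subunit Gabbr1 (0.38, SE 0.06) were the other genes called higher. They are named because their values were seen. Gabbr1 was just past the threshold (edgeR adjusted p = 0.0471). Astrocyte markers were higher in deleted cells: all 8 had positive log2 fold changes, and 5 were called higher with line as a block. Their sum was 911 to 993 CPM in deleted cells, against 568 to 573 CPM in controls. Other markers were called in the same fit. The neuron marker Syt1, a synaptic vesicle gene, had 61.4 CPM in deleted A and 25.9 CPM in deleted B, against 170 CPM in control A and 72.0 CPM in control B (−1.47, SE 0.07, edgeR adjusted p = 0.0194), with line A above line B in both groups, as for Rgs8. The neuron marker Elavl3 was higher (0.64, SE 0.11). Summed neuron markers were 164 CPM in deleted A and 121 CPM in deleted B, against 254 CPM in control A and 155 CPM in control B. Syt1 was the largest part of the control sums, so the lower sums do not describe the list as a whole. Of 9 tested neuron markers 5 had positive log2 fold changes with line as a block (list median 0.07). Of the mesenchyme markers Thy1, which neurons also express, was higher (1.72, SE 0.14). Of the neural stem cell markers Slc1a3, a glutamate transporter gene that astrocytes also express, was called higher (0.96, SE 0.08). It does not describe that list: of the 10 neural stem cell markers 5 had positive log2 fold changes with line as a block (list median −0.05). Nes was lower in both lines and not called (−0.48, SE 0.09). The part of these markers in the changes of the RGS and other G protein genes was not tested.

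**Figure D4:**
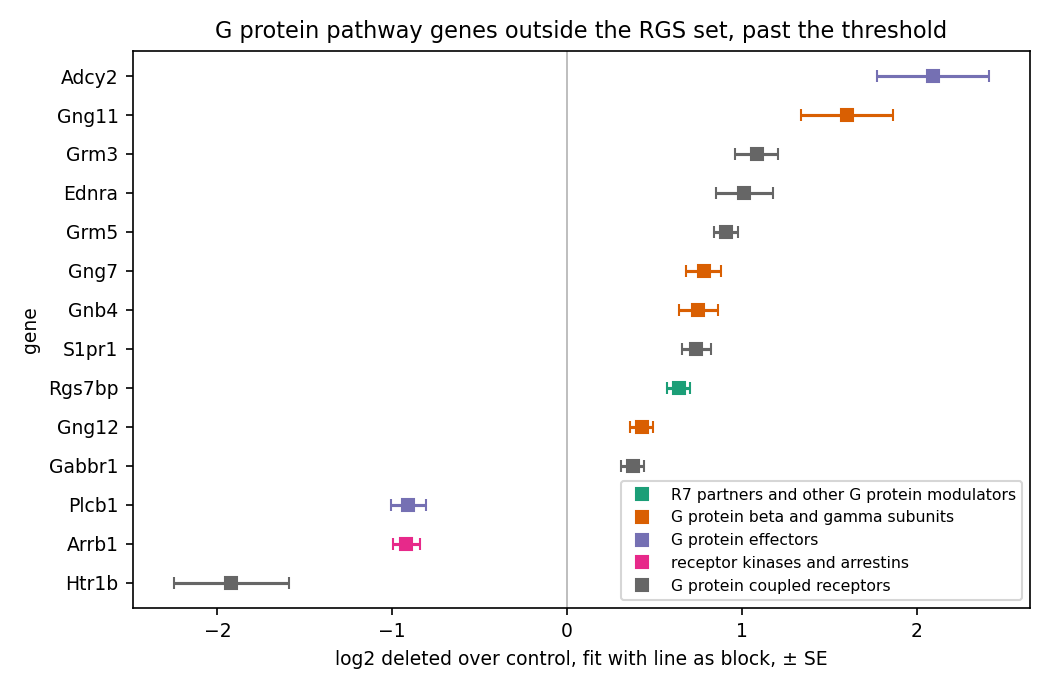
Log2 change, deleted over control, with its SE for the 14 G protein signalling genes outside the 10 members that edgeR called with line as a block, coloured by list. The 11 rises run from Gabbr1 (0.38) to Adcy2 (2.09), and the falls are Plcb1 (−0.91), Arrb1 (−0.92) and Htr1b (−1.92).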

How the data were processed

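The table the authors deposited holds raw counts, whole numbers for each gene, in 4 libraries. Per the submitters' processing notes, reads were handled with bcl2fastq, TopHat2 2.0.12 and edgeR on build mm10. Counter and strand setting were not given in the sources used here, so reads of overlapping genes may not be told apart; Rgs3, Rgs10 and Rgs20 each overlap another entry, with at most 42 counts over all libraries. The results given rest on the 4 columns of all aligned reads. The other 8 columns hold reads split by parental genome. They were analysed and their results seen, and these were then left out, so no Cast to 129 ratio is given. The reason was the mapping: column names show a group but not which labelled sample, which holds for all 12 columns, and with the split columns a group has more columns than samples.

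Groups were read from the column names against the labels, and lines A and B from numbers that deleted and control columns share. These numbers are not in the sample titles. Counts were tested with edgeR 4.0.16 in R 4.3.3 by the quasi-likelihood test, with TMM scaling, filterByExpr, genotype as a single factor, Benjamini-Hochberg adjustment over all genes and a threshold of 0.05. CPM values are TMM-normalized. By the protocol, libraries of a line are parts of the same culture, which pairs them (deviations from group means correlated at r = 0.716 over 14860 genes). A fit with line as a block is therefore given where it alters a call. Nothing says how far the 2 lines are independent, so p-values without line measure the spread between these cultures. Those with line as a block leave out the spread between lines. They measure how far the change from control to deleted differs between these 2 lines. Alternatives were DESeq2 1.42.0, RLE size factors, no filter and leaving out each library. Tested on simulated counts, the fit without line recovered few of the smaller changes and only some of the larger ones. The fit with line recovered most of both, with some false calls. Those counts were drawn with line effects that both groups shared, and with the spread of the fit with line. The gap between the fits was therefore largely set by how the counts were made. Under that setting a count of 0 without line says little.

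Members, lists and markers were chosen with earlier results of these data known. Named were all members, Smchd1 and, from each list, up to 4 called genes by size of change, or the 2 most abundant where none was called. For the called members with the largest rise and fall, the 3 nearest genes were taken among genes whose mean log2 CPM reached 1. The 7 genes near Rgs8 and Rgs16 were added after the values were seen, in place of neighbours chosen by their allele counts, and a further result there is not reported here. Exon lengths are from GENCODE M21 and promoter windows from RefSeq (GRCm38.p6).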

Additional observations from a re-analysis of the deposited data

Results flagged for a closer look

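Some genes moved in opposite directions in the 2 lines, and with 1 library per group and line that difference was not tested. Log2 ratios of deleted over control are given for line A and then line B. Among the 10 members these were −0.11 and 0.49 for Rgs7, and 0.092 and −0.050 for Rgs12. Among other RGS genes they were 2.02 and −0.91 for Rgs5, 0.96 and −2.05 for Rgs6, and 0.35 and −0.055 for Rgs9. Rgs5 and Rgs6 rest on 5 to 119 counts per library. The ratios were 0.048 and −0.029 for Gnas.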

How the results depend on the processing

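With genotype as the only term, edgeR called 0 members and 0 pathway genes, and likewise with RLE size factors, with no filter and without any 1 library, where the lone library of a group is assumed to vary like the other group. As that fit called 0 of all 14860 genes, these counts say nothing about stability. With the replicate block (line) 3 members and 14 pathway genes were called. With the block, RLE size factors gave 3 and 15 and no filter gave 4 and 18, both chosen after seeing the data. The share of all genes called was not taken for these fits, so nothing about these genes is read from their counts. DESeq2 called 1 and 6 without the block and 4 and 14 with it. In the fit without line, leaving out each library gave Rgs8 −2.79 (without deleted A) to −1.30 (without control A), Rgs16 −1.64 (without deleted A) to −0.55 (without control A), Rgs20 0.64 to 0.70, and Rgs4 0.09 (without deleted A) to 1.97 (without control A); the cause was not tested. Directions reversed for Rgs10 (−0.091 to 0.63), Rgs12 (−0.080 to 0.10, −0.0056 without control B, −0.050 within line B) and Rgs7 (−0.12 to 0.50, −0.11 within line A). Leaving out a library with the block was not run. The alternatives planned for the Cast to 129 ratio and the Cast share were run and seen, and are left out with the other results of the columns split by parental genome.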
